A study of Mus musculus with 8 samples.

Results

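Small nucleolar RNA genes were taken as all genes of the table whose mouse symbol starts with Snord (box C/D class), Snora (box H/ACA class) or Scarna (Cajal body class), leaving out host genes and pseudogenes. Of 150 such genes, 113 had values, among 52338 genes with values in all: 70 of the box C/D class, 37 of the box H/ACA class and 6 of the Cajal body class. The other 37 were listed without values, among them all 17 annotated genes of the Snord116 family and 3 of the 4 Snord14 genes.

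RNA was sequenced from mouse embryonic stem cells, the pluripotent cells of the early embryo, in 8 libraries. The cells had been given one of the reagents that the labels name sh-linc1393, sd-linc1393 or dd-linc1393 (sh, sd and dd below), or were wild type and untreated (control), with 2 libraries per group, replicates 1 and 2. The study asks how the long intergenic RNA linc1393 acts in keeping cells pluripotent. Its level, which would check the treatments, was not analysed here, because no identifier in the table was tied to it. The meaning of sd and dd is not given in the labels, which also name no strain or cell line and give the treated cells no genotype beyond the treatment. The controls got no reagent, so an effect of linc1393 cannot be told apart from an effect of giving a reagent. Whether replicates 1 and 2 were separate cultures is not stated, and p-values here cover only the spread between the libraries, which may be technical.

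Small nucleolar RNAs are stable nuclear RNAs that pair with other RNAs and guide their chemical modification. Box C/D RNAs, bound by fibrillarin (Fbl), mostly guide ribose methylation of ribosomal RNA, and box H/ACA RNAs, bound by dyskerin (Dkc1), mostly guide its pseudouridylation. Cajal body RNAs carry the same kinds of box and act on spliceosomal RNAs. Most are cut out of introns of host genes, many of which encode ribosomal proteins or translation factors, while a few, such as Snord118 and Snord13, have promoters of their own.

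The sequences of the members that the results turn on are given first, to show the short RNAs that were counted and the boxes that define their classes. They are the annotated transcripts of GENCODE M21 (GRCm38), 5′ to 3′. In box H/ACA and Cajal body members, capitals mark an H box match (ANANNA, starting 35% to 65% along the RNA, the match nearest the middle) and ACA placed 3 bases from the end. The first 4 below were the box H/ACA and Cajal body members with the largest fall in replicate 2 libraries, and Snora57 and Snora21 were the other leading box H/ACA members.
Snora20 (chr17:12922790-12922917, plus strand): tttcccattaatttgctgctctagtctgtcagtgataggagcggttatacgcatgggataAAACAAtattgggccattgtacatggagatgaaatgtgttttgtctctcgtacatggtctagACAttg
Snora41 (chr1:63179004-63179135, plus strand): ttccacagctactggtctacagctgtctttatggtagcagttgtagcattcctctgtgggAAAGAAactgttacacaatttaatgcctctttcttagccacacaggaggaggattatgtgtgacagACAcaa
Snora23 (chr7:110046364-110046547, plus strand): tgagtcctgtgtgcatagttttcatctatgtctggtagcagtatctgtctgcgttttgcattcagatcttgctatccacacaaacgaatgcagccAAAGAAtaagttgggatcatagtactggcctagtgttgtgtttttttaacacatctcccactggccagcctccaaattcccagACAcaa
Scarna8 (chr4:86586453-86586583, minus strand): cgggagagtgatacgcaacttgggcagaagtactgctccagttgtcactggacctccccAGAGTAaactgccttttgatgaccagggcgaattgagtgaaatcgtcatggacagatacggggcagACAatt
Snora57 (chr19:8888538-8888685, minus strand): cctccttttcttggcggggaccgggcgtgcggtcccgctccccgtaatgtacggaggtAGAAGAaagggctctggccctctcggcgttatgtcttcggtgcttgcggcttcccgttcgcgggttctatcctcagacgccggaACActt
Snora21 (chr11:97781639-97781775, minus strand): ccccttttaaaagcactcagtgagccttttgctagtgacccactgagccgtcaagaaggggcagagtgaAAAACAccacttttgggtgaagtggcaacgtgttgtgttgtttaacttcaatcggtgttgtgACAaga

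In box C/D members, capitals mark box C (TGATGA within the first 20 bases) and box D (CTGA within the last 15). Snord7 was the box C/D member with the largest fall in replicate 2 libraries, the next 4 had the largest rises there, and Snord104 and Snord118 are those that follow single libraries or lack a host.
Snord7 (chr11:83294304-83294400, plus strand): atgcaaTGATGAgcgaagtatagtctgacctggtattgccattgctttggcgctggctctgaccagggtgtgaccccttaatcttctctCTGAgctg
Snord49a (chr11:62603450-62603521, plus strand): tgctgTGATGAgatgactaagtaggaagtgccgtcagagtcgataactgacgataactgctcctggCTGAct
Snord35a (chr7:45126346-45126435, minus strand): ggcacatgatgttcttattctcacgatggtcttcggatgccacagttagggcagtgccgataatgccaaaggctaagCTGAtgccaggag
Snord83b (chr15:80078498-80078591, minus strand): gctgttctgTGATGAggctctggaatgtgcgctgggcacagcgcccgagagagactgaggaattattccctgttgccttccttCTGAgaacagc
Snord32a (chr7:45127382-45127464, minus strand): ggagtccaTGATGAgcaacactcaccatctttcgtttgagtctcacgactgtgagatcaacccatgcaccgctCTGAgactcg
Snord104 (chr11:106500993-106501062, plus strand): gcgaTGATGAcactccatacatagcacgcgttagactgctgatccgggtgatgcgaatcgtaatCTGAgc
Snord118 (chr11:69073427-69073561, plus strand): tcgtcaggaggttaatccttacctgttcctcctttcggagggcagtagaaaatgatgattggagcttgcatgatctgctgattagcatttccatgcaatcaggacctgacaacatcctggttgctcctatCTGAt

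On the transcript strand, both of the searched boxes C and D were found in 43 of the 70 box C/D members (61.4%), in 0 of the 37 box H/ACA members and in 1 of 4065 other annotated short RNAs of 60 to 250 bases. The H box with ACA 3 bases from the end was found in 28 of the 37 box H/ACA members (75.7%), in 0 of the 70 box C/D members and in 29 of the 4065 other short RNAs (0.713%). Snord35a and Snord118 had box D but no exact box C in the window searched.

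Depth is given as the reads assigned to genes, worked out from the smallest steps between FPKM values (fragments per kilobase, scaled to a library total). The sh, sd and dd libraries held 13738591 to 20387065 reads, while control replicate 1 held 6415130 and control replicate 2 held 3658368, the fewest. Replicate number, more than group, set the libraries apart, with 78.4% of the variance of tested genes on a first principal component that split the numbers. All 10 stem cell markers were above 0 in every library, with summed levels of 6949 to 10052 FPKM in replicate 2 and 1432 to 1862 FPKM in replicate 1 libraries. The gap in these sums came mostly from Dppa5a, with 5866 to 8584 FPKM in replicate 2 and 292 to 557 FPKM in replicate 1. The median difference of the 10 markers between the numbers was -0.002 log2, against 0.73 over all genes tested. Of other cell types, 8 fibroblast markers summed to 2.36 to 8.68 FPKM in replicate 2 and 0.466 to 0.801 FPKM in replicate 1 libraries, and 5 blood markers to 0.537 to 5.09 and 0 to 0.101 FPKM. The 6 neuron markers summed to 45.3 to 63.1 FPKM in replicate 2 and 25.9 to 46.3 FPKM in replicate 1 libraries. Most of that was Stmn2, with 33.8 to 56.3 FPKM in replicate 2 and 21.8 to 39.4 FPKM in replicate 1, while Snap25, Syt1 and Rbfox3 had at most 2.44 FPKM. The part of these markers in the results below was not tested.

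Few members carried many reads. In all, 59 of the 113 members had a read in at least 1 library (39 box C/D, 14 box H/ACA and 6 Cajal body), and 44 passed the filter for testing, a mean of at least 1 FPKM (28, 12 and 4). Over the 8 libraries the members held 12485 reads, of which 5 box H/ACA genes held 70.3%: Snora20 with 2617 reads, Snora41 with 2443, Snora23 with 1839, Snora57 with 1093 and Snora21 with 779. The most abundant box C/D member was Snord104, with 407 reads, and the most abundant Cajal body member was Scarna8, with 467. In bulk RNA, fewer cells that make an RNA and less of it per cell cannot be told apart, and reads of a mature RNA and of its host's intron over the same bases are counted alike.

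**Figure D1:**
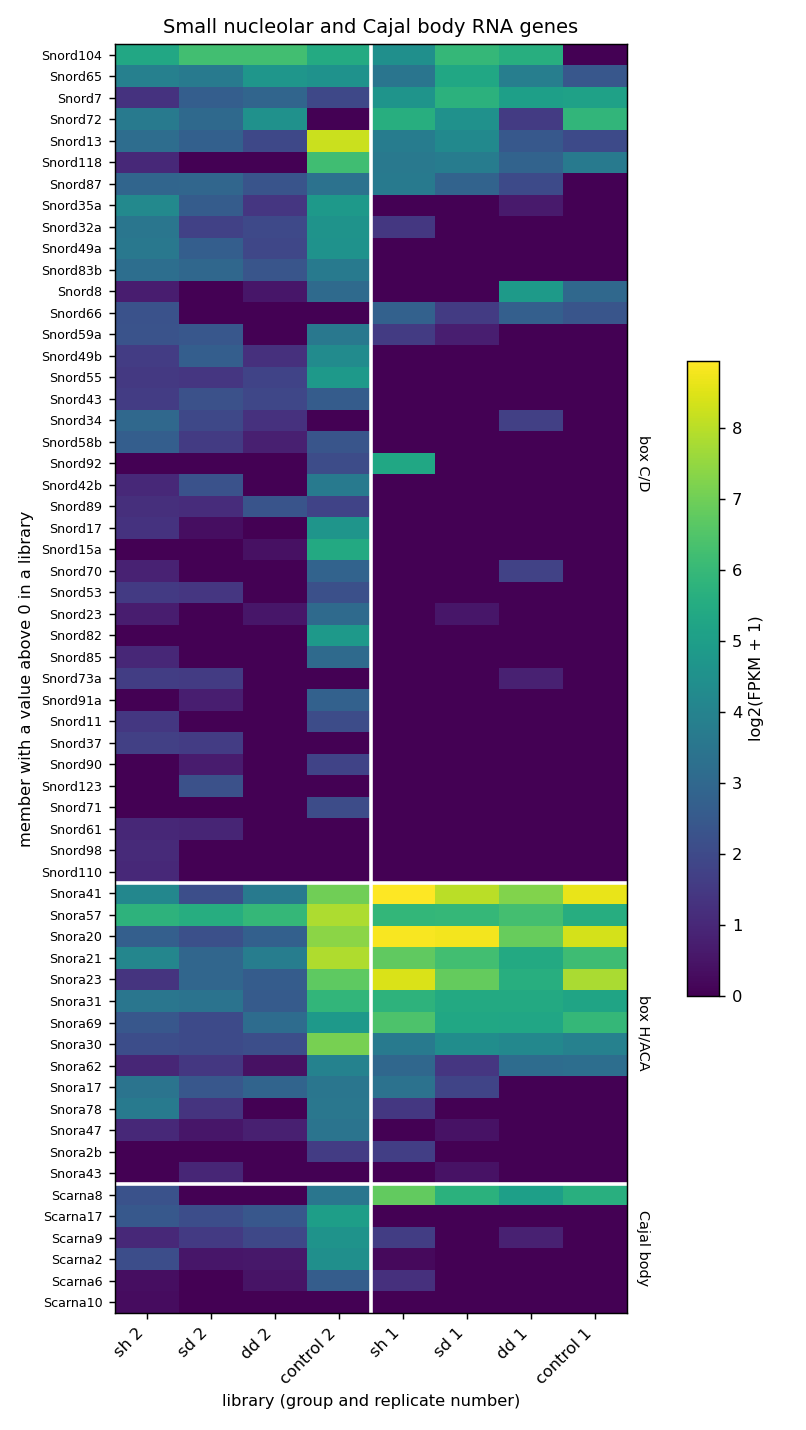
Levels of the 59 members with a read in at least 1 library, as log2(FPKM + 1), by library (group and replicate number), with replicate 2 libraries on the left and white lines between numbers and classes. The upper box H/ACA rows are bright in replicate 1 and in control replicate 2, while many box C/D rows are above 0 only in replicate 2 libraries.

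Whether a member had any reads followed its position relative to other genes' exons. Of 49 members with all bases inside annotated exons of another gene (29 box C/D and 20 box H/ACA), 0 had a read in any library. Of 55 with no such overlap, 54 had reads, the exception being Snora35, in an intron of the serotonin receptor gene Htr2c. Of 9 with partial overlap, 5 had reads. Among other genes of at most 300 bases, 421 of 422 fully covered ones (99.8%) were at 0 in all libraries, against 985 of 4608 (21.4%) without overlap, so the pattern was not particular to these RNAs. In 44 of the 49 members the covering exons lay on the same strand only, and in 3 (Snord42a, Snora73b and Snord4a) on the opposite strand only. Snora35, Snord42a and Snord4a are named after their values were seen.

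Several classical members were among the covered ones. Snord14a in Rps13 and Snord22 in Snhg1 are box C/D RNAs needed for ribosomal RNA processing, and both were listed at 0 in all 8 libraries. Snora73a and Snora73b, box H/ACA RNAs of pre-ribosomal RNA cleavage lying in Rcc1 and Snhg3, and Snora64 in Rps2 were also listed at 0. Scarna10, a Cajal body RNA in Ncapd2 with 87.1% of its bases covered, had 1 read, in sh replicate 2. How the authors' counting treated reads in overlapping genes is not given in the sources used here, and its part in these zeros was not tested.

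**Figure D2:**
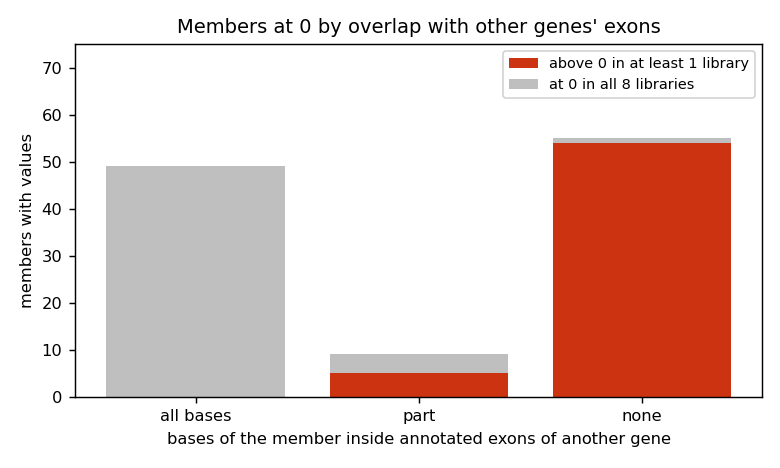
Number of the 113 members with values by how much of the member lies inside annotated exons of another gene, with members above 0 in at least 1 library in red and members at 0 in all 8 libraries in grey. All 49 fully covered members are grey, and 54 of the 55 members without overlap are red.

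The summed reads of the 3 classes did not follow the replicate numbers alike. Box H/ACA genes took 19.0, 13.1, 17.1 and 159 RPM (reads per 1000000 reads assigned to genes) in sh, sd, dd and control of replicate 2, against 235, 144, 74.3 and 168 RPM in the same groups of replicate 1. The treated libraries of replicate 2 were thus low, and its control library lay within the range of replicate 1. Box C/D genes took 14.0, 12.9, 12.3 and 79.0 RPM in replicate 2 libraries, against 16.3, 18.4, 13.0 and 11.2 in replicate 1 libraries, which overlap apart from control replicate 2. Cajal body genes took 2.43, 0.586, 0.834 and 15.6 RPM in replicate 2, against 14.9, 6.68, 4.28 and 6.39 in replicate 1 libraries. Box H/ACA genes made up 49.4% to 62.7% of member reads in replicate 2 and 81.1% to 90.5% in replicate 1 libraries.

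Detection went the other way from the read total. In replicate 2, 50, 42, 34 and 48 members were above 0 in sh, sd, dd and control, against 27, 23, 24 and 17 members in replicate 1. Of the 59 members with reads, 24 had them only in replicate 2 libraries (22 box C/D and 2 Cajal body), 0 only in replicate 1 libraries, and 35 in both. Replicate 2 libraries nevertheless held 2448 member reads, against 10037 in replicate 1 libraries, of 53383169 and 59662462 reads assigned to all genes. Over all genes matched to the annotation, 62.5% to 89.0% were above 0 in replicate 2 and 30.99% to 37.9% in replicate 1 libraries.

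**Figure D3:**
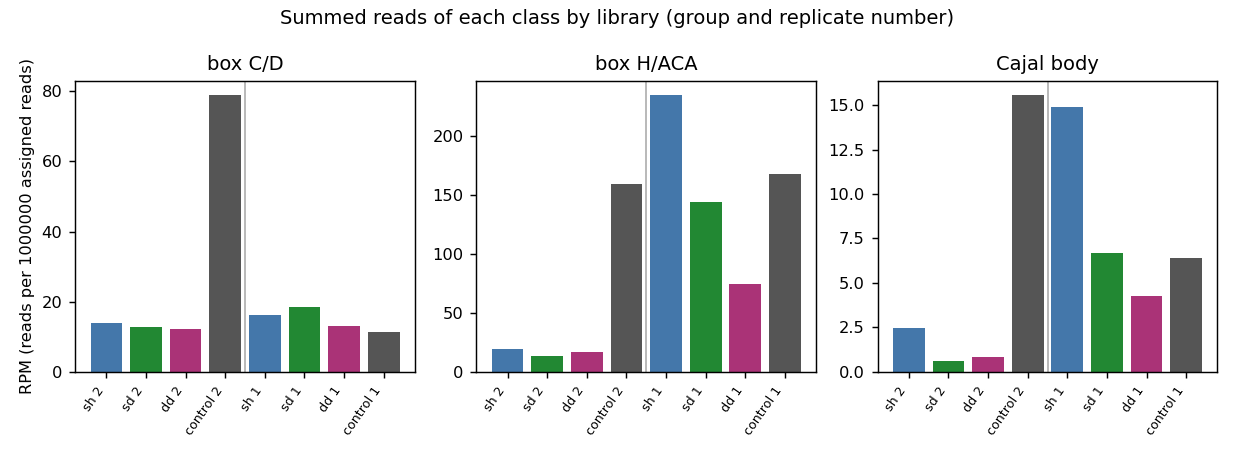
Summed reads of each class in RPM (vertical axis, from 0), as 1 bar per library, with the 4 replicate 2 libraries left of the line. Control replicate 2 has the highest bar of its replicate number in every class, at 79.0, 159 and 15.6 RPM.

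The comparison of replicate 2 with replicate 1 was fitted over all genes with the group as a term, because earlier results of these data showed that the libraries separate by number. Of the 44 members tested, 15 rose in replicate 2 libraries (11 box C/D, 2 box H/ACA and 2 Cajal body) and 8 fell (2 box C/D, 5 box H/ACA and 1 Cajal body), by limma with Benjamini-Hochberg adjustment at 0.05. Over all 14561 genes tested, 46.6% rose and 14.6% fell, so the share of members that rose was below the background. The median difference was 1.33 log2 in box C/D, -1.23 in box H/ACA and 1.76 in Cajal body members, against 0.73 in all genes tested. The box C/D and Cajal body medians include members with reads only in replicate 2 libraries. Such members passed the filter through those libraries and could only rise. After quantile normalization, which brought the median of all genes to 0.02, 9 members rose and 10 fell, against 27.6% and 29.8% of all genes. Without both control libraries, 10 members rose and 12 fell, against 40.9% and 13.3% of all genes.

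Snora20, in an intron of the chaperonin gene Tcp1, fell most. It had 5.59, 3.56, 5.75 and 167 FPKM in sh, sd, dd and control of replicate 2, against 465, 438, 115 and 326 FPKM in replicate 1. The 3 treated libraries of replicate 2 lay far below the rest, while its control library lay above dd replicate 1, so the numbers overlapped. Means were 45.4 ± 80.8 FPKM in replicate 2 and 336 ± 159 FPKM in replicate 1 (SD, n = 4 libraries of different groups each). The difference was -4.45 log2 (SE 0.77; limma, Benjamini-Hochberg adjusted p = 0.00107). Pooled over the libraries of a number, 110 and 2507 reads gave a rate 20.4-fold lower in replicate 2 (exact 95% interval 16.8 to 24.9, counting error only).

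Snora41, in the elongation factor gene Eef1b2, showed the same pattern without overlap. Its levels were 16.8, 3.45, 11.5 and 128 FPKM in replicate 2, against 491, 260, 152 and 399 FPKM in replicate 1, in the order sh, sd, dd and control. The difference was -3.98 log2 (SE 0.56; limma, Benjamini-Hochberg adjusted p = 3.54e-04). Of its stretches of 31 bases, 47.1% occur in transcripts of other genes, so its reads are uncertain. The same holds for Snora57 (29.7%) and Snora21 (29.0%), and for 0% of those of Snora20, Snora23, Scarna8 and Snord7.

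Snora23, in the nuclear import receptor gene Ipo7, had 1.56, 6.72, 5.07 and 104 FPKM in replicate 2, against 348, 112, 47.6 and 221 FPKM in replicate 1. Here too control replicate 2 lay above dd replicate 1 and the treated libraries of replicate 2 below all others. The difference was -3.76 log2 (SE 0.75; limma, Benjamini-Hochberg adjusted p = 0.00241). The other box H/ACA members that fell did so by less: Snora69 in Rpl39 differed by -2.66 log2 and Snora31 in Tpt1 by -1.62 log2.

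Scarna8, a Cajal body RNA that in human guides modification of a spliceosomal RNA, lies in the augmin subunit gene Haus6. It had 3.82, 0, 0 and 10.4 FPKM in replicate 2, against 109, 51.0, 32.3 and 48.8 FPKM in replicate 1. The numbers did not overlap, and 12 and 455 reads in all gave a rate 33.9-fold lower in replicate 2 (exact 95% interval 19.2 to 66.1). Its difference was -4.35 log2 (SE 0.51; limma, Benjamini-Hochberg adjusted p = 1.10e-04).

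Among box C/D members, Snord7, which in human guides methylation of the spliceosomal U6 RNA, had the largest fall. It had 1.48, 5.37, 6.57 and 2.82 FPKM in replicate 2, against 24.0, 52.7, 31.7 and 33.7 FPKM in replicate 1, with no overlap. The difference was -2.93 log2 (SE 0.28; limma, Benjamini-Hochberg adjusted p = 3.78e-05). Unlike in Snora20, Snora41 and Snora23, the control was not the highest library of replicate 2.

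The members that rose were mostly intronic box C/D RNAs at or near 0 in replicate 1. Those at 0 in all replicate 1 libraries passed the filter only through replicate 2, so they could only rise. With a filter of a mean of at least 10 recovered reads, 1 of 15 members rose and 8 fell, against 9093 and 2173 of 19491 genes. Snord49a, whose host 2410006H16Rik also holds Snord49b and Snord65, had 10.9, 5.42, 2.73 and 22.8 FPKM in replicate 2 and 0 in all replicate 1 libraries, where 3 reads would be 2.05 to 6.50 FPKM. All 4 replicate 2 libraries had reads, 27 in total, a rate at least 10.1-fold higher (against 3 reads over replicate 1). The difference was 3.18 log2 (SE 0.43; limma, Benjamini-Hochberg adjusted p = 2.66e-04).

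Snord83b, in an intron of the ribosomal protein gene Rpl3, had 8.38, 6.92, 4.17 and 11.6 FPKM in replicate 2 and 0 in replicate 1. Its 33 reads made the rate at least 12.3-fold higher, and the difference was 3.06 log2 (SE 0.32; limma, Benjamini-Hochberg adjusted p = 5.54e-05). Snord43, a second member in Rpl3, rose by 2.07 log2.

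The ribosomal protein gene Rpl13a holds Snord32a, Snord34 and Snord35a, box C/D RNAs of a cluster studied in mouse and hamster cells for its part in the response to lipid stress. Snord35a had 17.5, 5.06, 1.64 and 27.3 FPKM in replicate 2, against 0, 0, 0.580 and 0 FPKM in replicate 1. Its 41 and 1 reads gave a ratio of 45.8 (exact 95% interval 7.78 to 1853). Snord32a had 10.3, 2.35, 2.95 and 23.1 FPKM in replicate 2, against 1.75, 0, 0 and 0 FPKM in replicate 1. Its 27 and 2 reads gave a ratio of 15.1 (interval 3.79 to 131). The differences were 3.09 log2 for Snord35a (SE 0.59; limma, Benjamini-Hochberg adjusted p = 0.00185) and 2.59 log2 for Snord32a (SE 0.47; adjusted p = 0.00141). Snord34 had 7.16, 2.79, 1.4 and 0 FPKM in replicate 2, against 0, 0, 2.24 and 0 FPKM in replicate 1, and did not pass the test (limma, Benjamini-Hochberg adjusted p = 0.11).

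Of Cajal body RNAs, Scarna17 (chr18:74778391-74778469, minus strand) had 4.53, 3.30, 4.35 and 31.1 FPKM in replicate 2 and 0 in all replicate 1 libraries. It rose by 2.998 log2 (SE 0.48; limma, Benjamini-Hochberg adjusted p = 6.83e-04), but 81.6% of its stretches of 31 bases are shared with other genes. Scarna2, which is transcribed from a promoter of its own in human cells, had 3.28, 0.472, 0.474 and 21.1 FPKM in replicate 2, against 0.176, 0, 0 and 0 FPKM in replicate 1. It rose by 1.86 log2 (SE 0.62; limma, Benjamini-Hochberg adjusted p = 0.0262). Scarna9, in Cep295, had 1.02, 1.86, 2.80 and 23.4 FPKM in replicate 2, against 2.08, 0, 0.746 and 0 FPKM in replicate 1, and missed the threshold (limma, Benjamini-Hochberg adjusted p = 0.0603).

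Other leading members did not separate by replicate number. Snora57, which has no annotated host, had 54.6, 46.2, 61.3 and 229 FPKM in replicate 2, against 60.001, 61.8, 75.5 and 46.3 FPKM in replicate 1. Apart from control replicate 2 its levels lay between 46.2 and 75.5 FPKM, and its difference was 0.36 log2 (SE 0.42; limma, Benjamini-Hochberg adjusted p = 0.481). Snord65, in 2410006H16Rik, had 13.9, 11.8, 25.2 and 22.8 FPKM in replicate 2, against 10.1, 39.6, 13.0 and 4.33 FPKM in replicate 1 (limma, Benjamini-Hochberg adjusted p = 0.463). It thus did not pass the test where Snord49a in the same host did. Snora21, in the ribosomal protein gene Rpl23, had 16.2, 6.65, 12.9 and 233 FPKM in replicate 2, against 108, 73.5, 41.9 and 71.7 FPKM in replicate 1 (difference -1.47 log2; limma, Benjamini-Hochberg adjusted p = 0.0841).

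Host genes did not always move with the RNA in their intron. Of the 44 tested members, 33 had 1 host gene (30 different hosts), 4 had a pair of overlapping hosts and 7 had none. Hosts are counted below once per member. Among members with 1 host, 8 fell in replicate 2, and of their hosts 4 rose, 2 fell and 2 were not called. Of 10 members with 1 host that rose, 8 had a host that rose, 1 a host that fell and 1 a host that was not tested. Among those 8, Snord49a and Snord49b share a host, as do Snord83b and Snord43. Among members with 1 host that were not called, 7 hosts rose, 5 fell and 3 were not called. Over all genes tested, 46.6% rose and 14.6% fell, so a host that rose was common whichever way the member went. Tcp1, host of Snora20, had 102, 89.1, 66.5 and 51.1 FPKM in replicate 2, against 10.8, 9.59, 11.9 and 9.58 FPKM in replicate 1, and rose by 2.73 log2 (SE 0.26; limma, Benjamini-Hochberg adjusted p = 3.28e-05). Its direction was opposite to that of Snora20, and its levels did not overlap between the numbers.

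Eef1b2, host of Snora41, also rose, by 0.77 log2 (SE 0.19; limma, Benjamini-Hochberg adjusted p = 0.00619), with 461 to 589 FPKM in replicate 2 and 239 to 336 FPKM in replicate 1. Ipo7, host of Snora23, fell by 1.90 log2, with 8.39 to 17.1 FPKM in replicate 2 and 46.3 to 57.5 FPKM in replicate 1. Haus6, host of Scarna8, fell by 2.93 log2, with 4.27 to 8.92 FPKM in replicate 2 and 44.9 to 76.8 FPKM in replicate 1. Those 2 hosts moved with their members. AA465934, host of Snord7, had 13.2 to 26.1 FPKM in replicate 2 and 17.8 to 26.3 FPKM in replicate 1, and did not pass the test (limma, Benjamini-Hochberg adjusted p = 0.718). Rpl3, host of Snord83b, rose by 3.86 log2, with 107 to 159 FPKM in replicate 2 and 6.72 to 9.80 FPKM in replicate 1, and 2410006H16Rik, host of Snord49a, rose by 2.47 log2.

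**Figure D4:**
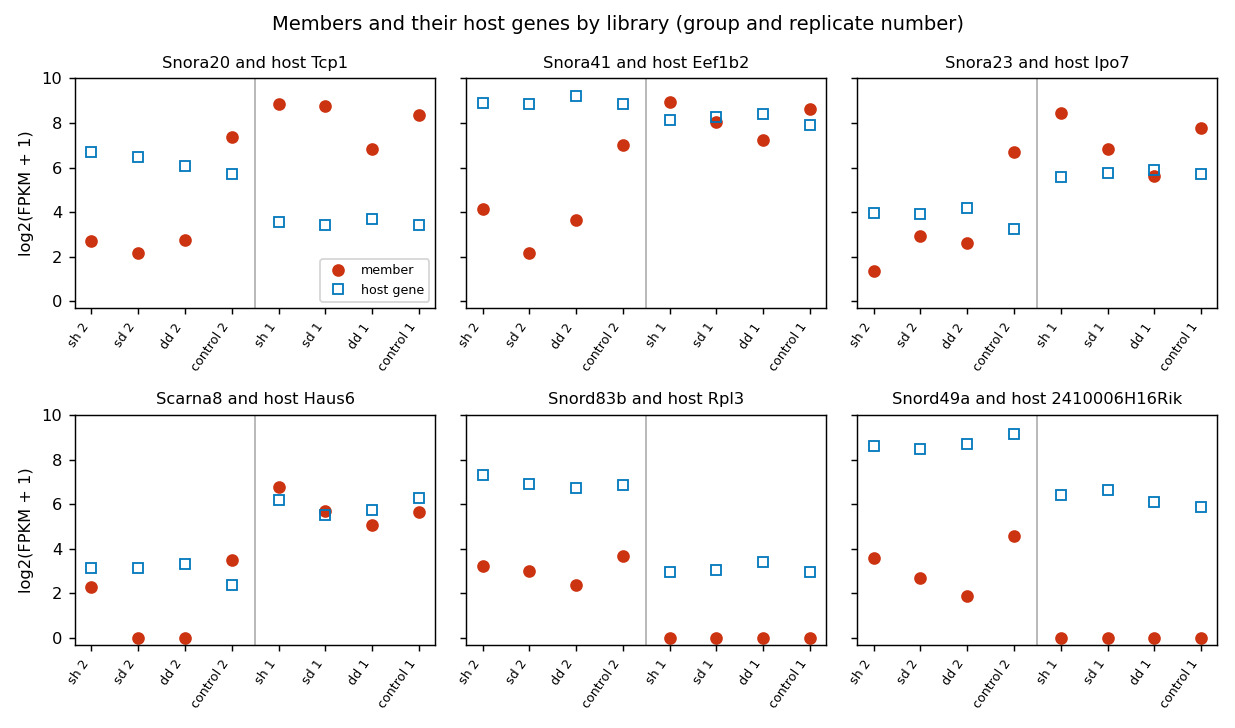
Levels of 6 members (filled red circles) and their host genes (open blue squares) as log2(FPKM + 1) by library, with replicate 2 libraries left of the line in each panel. Snora20 and Snora41 are lower and their hosts higher in replicate 2, Snora23 and Scarna8 are lower with their hosts, and Snord83b and Snord49a are higher with theirs.

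The genes of the snoRNA protein machinery split in the same comparison. Of 21 genes for core proteins and assembly factors, all tested, 7 rose and 10 fell, with a median of -0.09 log2. Over all genes tested, 46.6% rose and 14.6% fell, with a median of 0.73 log2. Ruvbl2, an ATPase of box C/D assembly, rose by 2.68 log2, with 11.9 to 33.6 FPKM in replicate 2 and 2.23 to 4.21 FPKM in replicate 1. The H/ACA assembly factor gene Naf1 fell by 2.31 log2, with 3.98 to 13.1 FPKM in replicate 2 and 25.7 to 51.9 FPKM in replicate 1. Ddx21, a nucleolar helicase, fell by 1.89 log2. Of the box C/D core genes, Fbl rose by 1.41 and Nop56 by 1.47 log2, while Snu13 fell by 1.09 and Nop58 fell by 0.59 log2. Of the H/ACA core genes, Dkc1 fell by 0.95, Gar1 fell by 0.77 and Nop10 fell by 0.71 log2, and Nhp2, at -0.09 log2, was not called. These 8 core genes were named after their values were seen. Of 5 Cajal body protein genes 3 rose and 1 fell, and of 7 genes for 3′ processing of such RNAs 3 rose and 2 fell.

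The comparisons of sh, sd and dd with control asked which members differed after each treatment. All 3 use the same control libraries. Of the 44 members tested, 0 were called in sh, in sd or in dd (limma, Benjamini-Hochberg adjustment; 0.0% of the 14561 genes in each), and 0 had an unadjusted p under 0.05. Over all genes, 32 in sh, 50 in sd and 83 in dd had an unadjusted p under 0.05. On simulated data this fit recovered 0% of known changes of 4 log2 in each treatment. Its 0 calls therefore do not show unchanged levels. In a fit with replicate number as a blocking term (the block below), the counts at an unadjusted p under 0.05 were 4, 9 and 12 members in sh, sd and dd, and voom on recovered reads also called 0 in each. The median member difference was -0.96 log2 in sh, -1.25 in sd and -1.34 in dd, against 0.15, 0.17 and 0.06 over all genes tested.

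These negative medians rested on replicate 2. Within replicate 2 the median member difference from control was -2.23 log2 in sh, -2.67 in sd and -2.77 in dd, with 39, 39 and 37 of 44 members negative. Within replicate 1 the median was 0 in each, with 20, 16 and 13 members positive and 6, 7 and 10 negative. A further 18, 21 and 21 were at the same value in both libraries. Control replicate 1 had only 17 members above 0, so a median of 0 there does not show equal levels. In replicate 2 all 3 treated libraries lay below control in 35 of the 44 members, against 28.1% of all genes tested, and in replicate 1 in 2 members, against 14.0% of genes. A number of members passed the filter only through control replicate 2. Among them were Snord82, Snord15a, Snord17, Snord55, Snord70, Snord85, Snord23, Snord42b, Snora47 and Scarna2. Their lower treated values there, which enter the medians and the count of 35 members, were thus largely set by the filter. The comparison of that count with all genes was in part set in advance too. With the block and without control replicate 2, the median was 0.36 log2 in sh, 0.02 in sd and -0.01 in dd.

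**Figure D5:**
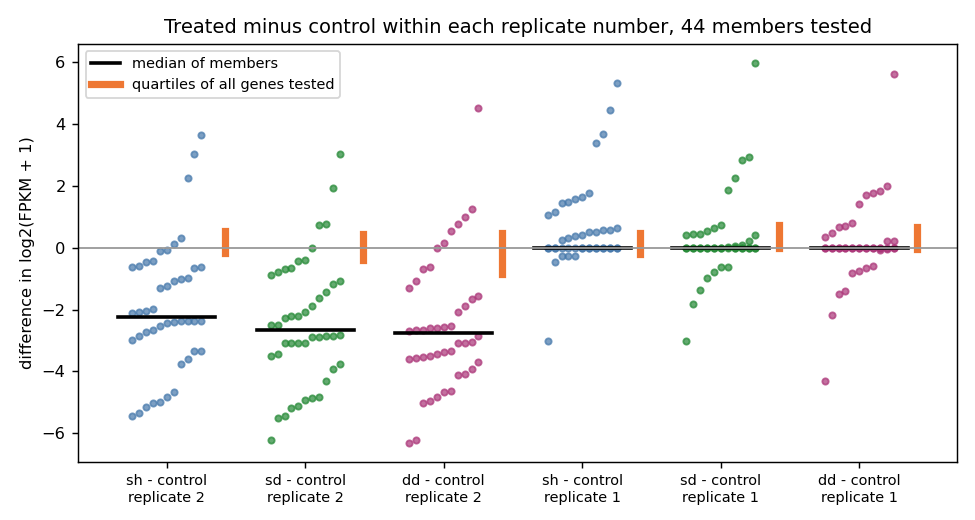
Difference in log2(FPKM + 1) between each treated library and the control library of the same replicate number, for the 44 members tested (points spread sideways for legibility), with the member median (black line) and the quartiles of all 14561 genes tested (orange bar). The medians lie between -2.77 and -2.23 in replicate 2 and at 0 in replicate 1, while the orange bars of all genes span 0 in all 6 sets. A number of members passed the filter only through control replicate 2, which largely sets their differences in replicate 2.

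Control replicate 2, the shallowest library, stood apart from the other 3 of its number. Snord13, a box C/D RNA that guides acetylation of small-subunit ribosomal RNA and has its own promoter, had 8.26, 5.63 and 2.83 FPKM in sh, sd and dd of replicate 2 and 302 FPKM (115 reads) in control replicate 2. In replicate 1 it had 12.6, 17.96, 4.52 and 2.998 FPKM in sh, sd, dd and control, where the control was the lowest. Snord118, needed for maturation of large-subunit ribosomal RNA, had 1.06, 0 and 0 FPKM in the treated libraries of replicate 2 and 72.9 FPKM in the control. In replicate 1 it had 11.3, 12.4, 6.19 and 11.5 FPKM. Of its stretches of 31 bases 32.4% are shared with other genes. Snora30, with 52.0% shared, had 3.3, 3.004 and 3.396 FPKM in the treated libraries of replicate 2 and 137 FPKM in the control.

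Of the 10 other small RNA genes with values, 4 were above 0 in control replicate 2, and each of those 4 was higher there than in the treated libraries of replicate 2. Rny1 and Rny3, the Y RNAs, had 4.38 to 13.4 and 4.81 to 26.0 FPKM in the treated libraries of replicate 2, and 1152 and 1720 FPKM in control replicate 2. Rnu12, the U12 spliceosomal RNA, had 3.90 to 13.7 FPKM in the treated libraries and 462 FPKM in the control, and Rpph1, the RNase P RNA, had 0 to 0.897 and 41.1 FPKM. The other 6, which are both Rmrp entries, Rnu11, Rnu3a, Rnu7 and Rnu73b, were listed at 0 in control replicate 2, and Rnu73b had 4.03, 2.75 and 0 FPKM in sh, sd and dd of that number. All 10 summed to 13.4 to 58.1 FPKM in the treated libraries and 3375 FPKM in the control of replicate 2, against 28.2 to 109 FPKM in the treated libraries and 53.2 FPKM in the control of replicate 1, and Rny1 and Rny3 made up most of the sum in control replicate 2. Rnu12 and the genes at 0 were named after their values were seen. The part of this library in the treatment differences is seen by leaving it out, as above and below, and what made it differ was not tested.

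Members were called in sh, sd or dd only in fits that had the block and also left out 1 control library. Without the block, leaving out either control library called 0 members in sh, sd and dd. At an unadjusted p under 0.05 those fits had 16, 15 and 16 members without control replicate 1, and 3, 2 and 2 without control replicate 2. With the block and without control replicate 1, 9 members fell in sh, 14 in sd and 13 in dd, against 0.694%, 0.996% and 1.11% of all genes tested, and 0 members rose, against 0.00687%, 0.0275% and 0.0412%. The lone control library is there assumed to vary like the other groups. Among the members that fell, Snord82, Snord15a, Snord17, Snord55 and Scarna2 (the last in sd and dd) passed the filter only through that control library. Their fall was thus largely set in advance, and so in part was the comparison with all genes. In those fits the differences of Snord118 were -5.40 log2 in sh, -5.86 in sd and -6.31 in dd, and the differences of Snora30 were -5.21, -4.90 and -4.96 (limma, Benjamini-Hochberg adjusted p = 0.00749 to 0.0124 over both). With the block and without control replicate 2, 0 members were called in sh and 1 rose in sd and in dd, against 0.00687% of genes in each of sd and dd. That member was Snord104.

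Snord104, a box C/D RNA with no annotated host that in human guides methylation of ribosomal RNA, had the lowest value of all libraries in control replicate 1. It had 39.9, 74.4, 73.6 and 43.0 FPKM in sh, sd, dd and control of replicate 2, and 20.8, 61.8, 47.7 and 0 FPKM in replicate 1. At 3 reads, control replicate 1 would have had 6.68 FPKM. The sd and dd libraries lay above both control libraries, while sh replicate 1 and sh replicate 2 lay between them. Pooled over both numbers, 168 reads in sd and 169 in dd against 11 in control gave ratios of 4.31 (exact 95% interval 2.35 to 8.80) and 3.91 (2.13 to 7.99). The difference from control was 3.38 log2 in sd and 3.18 in dd (SE 1.63 each; limma, Benjamini-Hochberg adjusted p = 1), and 5.81 and 5.62 with the block without control replicate 2 (adjusted p = 0.0104 and 0.0131). Within replicate 2 it was 0.78 in sd and 0.76 in dd, and within replicate 1 it was 5.97 and 5.61.

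Members whose treated and control libraries did not overlap were few. In sh 0 members were higher and 4 lower without overlap, against 8.4% and 2.13% of genes. In sd 1 was higher and 2 lower, against 11.1% and 2.69% of genes. In dd 2 were higher and 5 lower, against 11.2% and 4.72%. Besides Snord104, Snord34 was higher in dd, with 2.24 and 1.4 FPKM from 3 and 2 reads in replicates 1 and 2, against 0 in both control libraries, which is too few reads for a fold.

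Of the lower ones, Snora62, a box H/ACA RNA in the ribosomal protein gene Rpsa, was below both control libraries in all 3 treatments. It had 0.961, 1.75, 0.329 and 14.7 FPKM in sh, sd, dd and control of replicate 2, and 6.84, 1.65, 8.06 and 8.37 FPKM in replicate 1. Its differences were -1.63, -2.17 and -1.80 log2 in sh, sd and dd (SE 1.07 each; limma, Benjamini-Hochberg adjusted p = 1). Within replicate 1 they were -0.26, -1.82 and -0.05, so in sh and dd most of the difference came from replicate 2.

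Snord8, which in human guides methylation of the U6 RNA and lies in Chd8, had 0.651, 0, 0.446 and 7.45 FPKM in sh, sd, dd and control of replicate 2, and 0, 0, 28.0 and 7.09 FPKM in replicate 1. It was lower than both controls in sh and sd and not in dd, where replicate 1 was the highest of the 8 libraries with 59 reads. The sh and control libraries held 1 and 8 reads, a ratio of 0.0454 (exact 95% interval 0.00102 to 0.339). Its 0 reads in sd made the rate at least 9.45-fold lower. The differences were -2.69 log2 in sh and -3.05 in sd (SE 1.30 each; limma, Benjamini-Hochberg adjusted p = 1). Snora30 was lower without overlap in sh, at -2.64 log2, with 11.8 FPKM in sh and 14.4 FPKM in control of replicate 1.

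In dd, Snord118 and Snora21 were also lower without overlap. Their differences were -3.51 log2 (SE 1.70) and -2.42 log2 (SE 1.44), each with a limma, Benjamini-Hochberg adjusted p of 1, and -0.80 and -0.76 within replicate 1.

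Of the machinery genes, 0 of 21 core and assembly genes, 0 of 5 Cajal body protein genes and 0 of 7 3′ processing genes were called against control in any treatment (limma, Benjamini-Hochberg adjustment). Of the 21, 17 in sh, 16 in sd and 14 in dd had a positive difference, with medians of 0.26, 0.31 and 0.26 log2, against 0.15, 0.17 and 0.06 over all genes tested.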

How the data were processed

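The deposited table holds FPKM values per gene and library, per the file headers. Per the submitters' processing notes, CASAVA 1.4, HISAT2 and the mm10 build were used. Not given in the sources used here are the counting program, the annotation, the FPKM total and whether strand was used. Overlapping and antisense genes can therefore not be told apart. Of 52338 genes with values, 52081 matched GENCODE M21 (GRCm38), which gave symbols, exon lengths, hosts (genes on the same strand that span a member) and sequences. Snora43 has a pair of gene entries with values.

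FPKM times exon length was a whole multiple of 1 read's worth, within 0.02, for 98.3% to 98.9% of values under 100 reads, which gave reads and totals. Intervals (exact, 95%) and floors of 3 reads cover counting error only: without molecular identifiers, several reads can stem from 1 molecule.

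Genes with a mean of at least 1 FPKM (14561) were tested on log2(FPKM + 1) with limma 3.58.1 (R 4.3.3), which understates changes of low genes, with a variance trend, two-sided, with Benjamini-Hochberg adjustment over all genes per comparison. Group comparisons had no covariate. The comparison of replicate numbers had the group as a term. Same-numbered libraries deviated together from their group means (correlations of 0.75 to 0.893 over all 4 groups). The numbers were therefore taken as pairing the libraries in fits with the block and in differences within a number, from the data and not the labels. The main group comparisons ignore that pairing, so their SE and adjusted p include the spread between numbers. With the block, the smallest adjusted p of a member was 0.999 in sh, 0.723 in sd and 0.553 in dd (limma, Benjamini-Hochberg adjustment). The fits were checked on simulated data with known changes of 1 to 4 log2. Without the block, 0% of these changes were recovered in sh, sd and dd. With the block, 88%, 80% and 80% of changes of 4 log2 were recovered in sh, sd and dd. The changed genes were drawn only from those above a mean level that many of the tested members do not reach. For such members these shares do not hold, and 0 calls with the block do not show unchanged levels.

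Named members were the leading ones of each class by mean log2 level, those with separate libraries and the smallest unadjusted p per treatment, the 5 largest rises and falls between numbers, and members of known role. Members and lists were chosen with earlier results of these data known. Alternatives were other pseudocounts, filters, scalings, gene sets, variance models and fits, the replicate number as a block, and leaving out libraries. The block with a read filter or with median ratio scaling, and leaving out both control libraries, were added after seeing the data.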

Additional observations from a re-analysis of the deposited data

Results flagged for a closer look

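In 52 sets of 4 libraries (a class sum or a named member within one replicate number), the library farthest from the others was compared with Dixon's 95% critical value. In 21 sets it lay outside, 16 of them in replicate 2, where control was the highest each time, and 5 in replicate 1. The 1 in 20 of that critical value holds for normal values in sets not chosen by their levels, so these counts cannot be set against it. Some members were named because their treated libraries lay below both controls. A set with a value above 0 in 1 library only always lies outside, and sets that share a library are not independent.

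In control replicate 2 the class sums were 79.0 RPM for box C/D, 159 for box H/ACA and 15.6 for Cajal body members, against at most 14.0, 19.0 and 2.43 in the treated libraries of that number. Box C/D members far above the rest there were Snord13 at 302 FPKM, Snord118 at 72.9 and Snord8 at 7.45 FPKM. Box H/ACA members were Snora21 at 233 FPKM, Snora57 at 229, Snora20 at 167, Snora30 at 137, Snora41 at 128, Snora23 at 104 and Snora62 at 14.7 FPKM. Cajal body members were Scarna17 at 31.1 FPKM, Scarna9 at 23.4 and Scarna2 at 21.1 FPKM. Snord8 and Snora62 rest on 3 and 8 reads in that library, and Scarna9 and Scarna17 on 6 and 9.

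In replicate 1, dd had the lowest Snord118 value, at 6.19 FPKM, against 11.3 to 12.4 FPKM in the other 3 libraries. The other 4 sets had a value above 0 in 1 library only: Scarna2 at 0.176 FPKM and Snord32a at 1.75 FPKM in sh, and Snord34 at 2.24 FPKM and Snord35a at 0.580 FPKM in dd. These came from 1 to 3 reads each. Why any of these libraries differ was not tested.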

How the results depend on the processing

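Of the counts of called members over the 4 comparisons, 81 alternatives stayed within 1.5 times the reported count and 8 moved further, and among single named members no difference changed its sign. A replicate block left the number of called members at 0 in sh, sd and dd, and it changed no other call with all libraries kept. Over fits that left out 1 library, with or without the block, 0 to 9 members were called in sh, 0 to 14 in sd and 0 to 13 in dd, the highest counts all being without control replicate 1. In the comparison of replicate 2 with replicate 1, leaving out 1 library gave 19 to 25 calls, against 23. No filter on low values gave 37 calls of 59 members, a mean of at least 5 FPKM gave 12 of 25, and a mean of at least 10 reads gave 9 of 15 (1 higher and 8 lower). Those filters test fewer or more members by construction. The calls in sh, sd and dd came from fits with the block and without 1 control library, and the cause was not tested. Many box C/D and Cajal body members rest on under 10 reads per library, and in control replicate 2 a single read of Snord49a counts 3.80 FPKM, so low values there are coarse.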

Other observations

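Some members, chosen after their values were seen, had most of their reads in a single library. Snord92, in an intron of the ribosome assembly gene Wdr43, had 46 reads in sh replicate 1 (39.4 FPKM), 1 read in control replicate 2 and 0 in the other 6 libraries. Snord8 had 59 of its 69 reads in dd replicate 1. Snord15a, in Rps3, had 23 of 24 reads in control replicate 2, Snord17, in Snx5, had 21 of 27 there, and Snord82, in the nucleolin gene Ncl, had all of its 7 there.

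Snord72, in the ribosomal protein gene Rpl37, had 11.5, 7.23, 21.8 and 0 FPKM in sh, sd, dd and control of replicate 2, against 47.6, 21.8, 1.93 and 57.7 FPKM in replicate 1. Its difference between the treated and control libraries had opposite signs in the 2 numbers, at 3.64, 3.04 and 4.51 log2 in replicate 2 and -0.27, -1.36 and -4.32 log2 in replicate 1 for sh, sd and dd. Whether the treatment differences differ between the numbers was not tested. Its host Rpl37 had 199 to 424 FPKM in replicate 2 and 21.2 to 27.4 FPKM in replicate 1.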
